A study of Sus scrofa with 4 samples.

Results

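The genes described here encode the machinery that cuts and loads peptides for major histocompatibility complex (MHC) class I molecules: TAP1, TAP2, PSMB8, PSMB9, PSMB10 and B2M. Every array probe other than a control whose transcript name was a pig RefSeq transcript of one of these genes was taken. This gave 14 of 43603 probes and 6 of the 3020 genes that could be named. TAP1 had 2 probes, TAP2 2, PSMB8 3, PSMB9 2, PSMB10 3 and B2M 2. All 14 passed the filter on dim probes, since each was well above background on every one of the 4 arrays. No array had a saturated spot (0 of 43803). Each probe is a single spot on an array.

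Cells show fragments of their own proteins to CD8 T cells on class I molecules. The proteasome cuts the proteins. In immune cells, and in other cells after interferon gamma, the catalytic subunits PSMB8, PSMB9 and PSMB10 replace their constitutive counterparts PSMB5, PSMB6 and PSMB7, which gives the immunoproteasome. TAP1 and TAP2 pair to form the transporter that carries the peptides into the endoplasmic reticulum, where they bind a heavy chain held by beta-2 microglobulin, the product of B2M. In the RefSeq order of the pig assembly Sscrofa11.1, TAP2, PSMB8, TAP1 and PSMB9 are immediate neighbours inside the class II part of the MHC, with SLA-DOB on the TAP2 side, whereas PSMB10 and B2M lie on other chromosomes. That table lists B2M as 2 entries, so the signal of the B2M probes cannot be assigned to 1 of them.

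The arrays carried spleen RNA of Minnesota miniature swine, 3 arrays from animals of genotype wildtype (WT) and 1 from an animal of genotype IL2RG +/-, called KO here after the study's own name. IL2RG encodes the common gamma chain of several interleukin receptors. Per the study, the KO animals were cloned by nuclear transfer from cells edited with TALENs, nucleases that cut a chosen site. The labels give no age or treatment for any sample, and they do not say whether WT animals were cloned or whether each WT array is a separate animal. KO was read once, so no value here measures the spread between KO animals, and in whole spleen a change of RNA per cell and a change in the mix of cells cannot be told apart. WT 1 and KO lay on slide 1, and WT 2 and WT 3 on slide 2.

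Values are log2 signals with the 75th percentile of each array set to 0, and differences are the KO value less the mean of the WT arrays, unless WT 1 is named as the comparator. Both probes of IL2RG itself were lowest on KO, with differences of -0.77 and -2.12 (limma, adjusted p = 0.578 and 0.402). Between 66.1% and 72.7% of spots were well above background. Marker genes of the spleen's cells differed between the arrays. Of the B cell markers, 2 of 5 could be read (MS4A1 and CD79A), both were below every WT array, and their summed signal, in multiples of the 75th percentile, was 0.130 in KO and 2.29 to 4.34 in WT. Both were still well above background on KO. Of the macrophage markers 6 of 9 could be read, all 6 were above every WT array, and the median difference was 3.13. Their sum was 528 in KO and 204 to 265 in WT. HMOX1, the brightest and the largest part of that sum, differed by 0.66. The other macrophage markers differed by 1.45 (SPI1) to 3.89 (FCGR1A). Of the T cell markers 6 of 7 could be read, 5 were higher in KO, and 3 (CD2, CD4 and CD8A) were above every WT array. CD3D, CD3E and CD3G differed by 0.25, -0.53 and 0.07, all inside the WT range and below WT 1. The sum of the T cell markers was 24.3 in KO and 8.79 to 25.7 in WT. Of the NK cell markers 3 of 5 could be read, and the sum was 10.2 in KO and 4.48 to 24.2 in WT. NCR1 was below every WT array, and KLRK1 differed by -0.34. GZMA was above every WT array, but above WT 1 by only 0.07, and was well above background on 3 arrays. Markers of blood cell lineages split the WT arrays as well. The sum of 2 of 5 erythroid markers was 0.428 on WT 1, 1.70 on KO and up to 26.7 on the other WT arrays, and that of 2 of 3 platelet markers was 2.03 on WT 1, 1.62 on KO and up to 22.5. KLF1, an erythroid transcription factor, read -4.68 on WT 1 and -3.17 on KO but 4.06 and 4.38 on WT 2 and WT 3. The sum of 3 of 4 neutrophil markers was 1.07 on WT 1, 11.8 on KO and up to 76.2. The part of this cell mix in the results below was not tested.

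Genes of peptide cutting and loading had higher signal on the KO array than on each WT array, with 1 TAP2 probe as the exception. KO lay above all 3 WT arrays on 13 of 14 probes, where 27% of the 33464 probes tested did so. It was at least 2-fold above the WT mean on 11 of 14, against 7.71% of all probes. Bright probes were more often higher in KO: 13 of the 14 probes fell in the brightest of 4 equal bins of the probes tested, and in that bin 43.1% of probes had KO above all WT arrays and 11.4% were at least 2-fold above the WT mean. The median difference over the 14 probes was 1.28, ranging from -0.34 to 2.79. Over all probes tested it was -0.11, and over the brightest bin 0.14. The limma test, with Benjamini-Hochberg adjustment over all probes, called 0 of the 14 and 0 of 33464 (0% of probes), while 11.3% of all probes had an unadjusted p under 0.05. Adjusted p values of the 14 lay between 0.410 and 0.890. At an unadjusted limma p under 0.05 there were 5 of 14, all higher in KO, against 5.33% of all probes and 8.76% of the brightest bin higher at that level.

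The WT arrays differed among themselves on the same genes. WT 1 was above both WT 2 and WT 3 on all 14 probes, where 39.2% of all probes and 53.6% of the brightest bin showed this. KO was above WT 1 and WT 1 above the other two on 13 of 14, against 16.6% of all probes and 29.7% of the brightest bin. The SD among WT arrays had a median of 0.64 over the 14 probes, 0.33 over all probes and 0.24 over the brightest bin. WT 1 shares its slide with KO, so slide and sample cannot be told apart in the gap between WT 1 and the other WT arrays. The full order KO, WT 1, WT 2, WT 3 held on 12 of 14. Its share over all probes was not computed. The nearest shares are the 16.6% and 29.7% above, which leave WT 2 and WT 3 in either order. Within slide 1, the difference between KO and WT 1 had a median of 0.86 over the 14 probes, -0.03 over all probes and 0.09 over the brightest bin. On 5 of 14 probes KO was at least 2-fold above WT 1, against 7.94% of all probes and 7.72% of the brightest bin. These 5 were both TAP1 probes, the dimmer TAP2 probe, 1 PSMB9 probe and 1 PSMB10 probe.

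**Figure D1:**
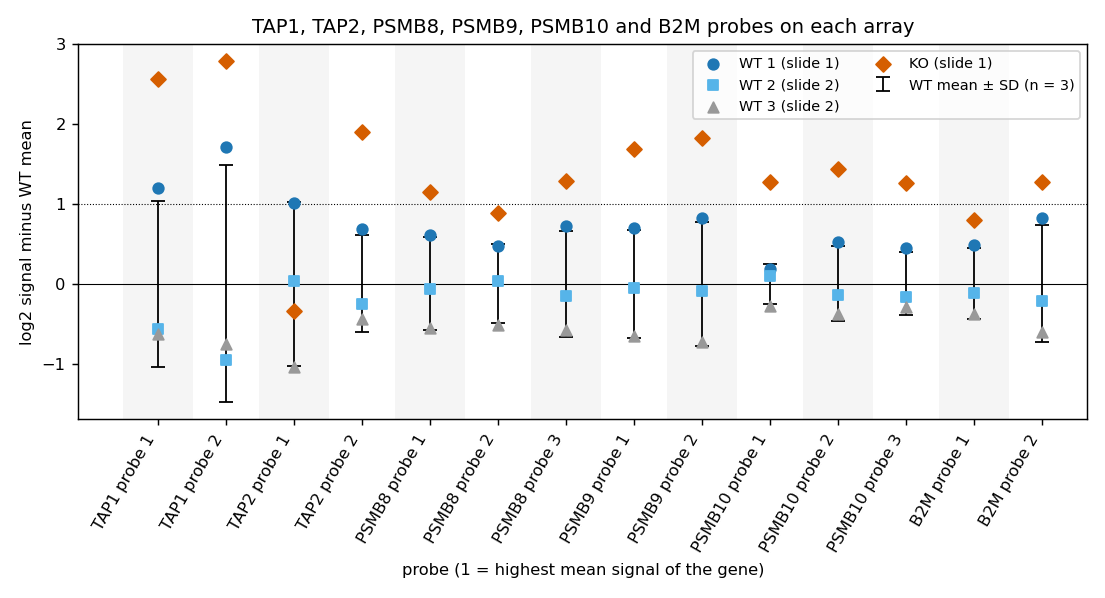
Log2 signal of each of the 14 probes less its WT mean (vertical axis), by probe (horizontal axis, ordered by gene and then by mean signal), with 1 point per array and bars for the SD of the 3 WT arrays around their mean. The KO diamond is the highest point at 13 of 14 probes and lies at -0.34 on TAP2 probe 1, and the dotted line marks a 2-fold difference.

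The catalytic subunits of the immunoproteasome were higher in KO on every probe. PSMB9, which takes the place of PSMB6, had values of 5.91, 5.16 and 4.56 on WT 1, WT 2 and WT 3 and 6.89 on KO at its brighter probe. KO stood apart from the WT range by 0.98, although the WT values themselves spanned 1.35. The difference was 1.69, or 3.22-fold, and its standard error was 0.62 (limma, adjusted p = 0.449), and the other PSMB9 probe gave 1.83. PSMB10, which takes the place of PSMB7 at the trypsin-like site, was 5.26, 5.17 and 4.79 on the WT arrays and 6.34 on KO at its brightest probe. Its WT values were the closest of the 14 probes, with an SD of 0.25, and KO was 1.08 above the highest of them. The difference was 1.27, or 2.41-fold, and its standard error was 0.33 (limma, adjusted p = 0.410), and the other 2 probes gave 1.44 and 1.27. PSMB8, which takes the place of PSMB5 at the chymotrypsin-like site, was 5.09, 4.41 and 3.93 on the WT arrays and 5.62 on KO at its brightest probe. The highest WT value, again of WT 1, was 0.53 below KO. The difference of 1.14, or 2.21-fold, had an SE of 0.55 (limma, adjusted p = 0.515), and the other 2 probes gave 0.88 and 1.28. Over the 8 probes of these 3 genes, 7 were at least 2-fold above the WT mean, while against WT 1 alone the differences ran from 0.41 to 1.08.

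The constitutive subunits PSMB6 and PSMB7 lay inside the WT range on KO. PSMB6, the counterpart of PSMB9, was 4.48, 4.12 and 4.24 on the WT arrays and 4.36 on KO. PSMB7, the counterpart of PSMB10, was 4.39, 4.69 and 4.78 on the WT arrays and 4.55 on KO. Over the 5 probes of both genes the differences ran from -0.12 to 0.21, and KO was above all WT arrays on 0 of 5. PSMB5, the counterpart of PSMB8, was not analysed here. The log2 ratio of PSMB9 to PSMB6 within each array, which a scaling constant cannot move, was 1.43, 1.04 and 0.32 on the WT arrays and 2.53 on KO. The ratio in KO was thus 3.04-fold that of the WT mean. For PSMB10 over PSMB7 it was 0.87, 0.48 and 0.0049 on the WT arrays and 1.79 on KO, or 2.53-fold. Both ratios were highest on KO and next highest on WT 1. An exact permutation test over the 4 arrays gave p = 0.25 for each, two-sided, which is the smallest value 3 arrays against 1 allow. The ratios show unequal change of paired subunits on these arrays, not that PSMB6 and PSMB7 were constant.

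Other proteasome genes were mostly higher in KO too, and no test between them and PSMB8, PSMB9 and PSMB10 was made. Of 41 listed genes of the core, activators, assembly factors and regulatory particle, 14 could be tested, 13 were higher in KO with a median difference of 0.30, 10 were above all WT arrays, 2 were at least 2-fold above the WT mean and 0 were called. Over all 2742 named genes tested, 54.7% were higher with a median of 0.08, 38.1% were above all WT arrays and 14% at least 2-fold above the mean. The 2 genes were PSME2 and PSMA6. PSME2, a subunit of the activator cap that interferon gamma induces, was 5.53, 5.05 and 4.53 on the WT arrays and 6.23 on KO, a difference of 1.19 (limma, adjusted p = 0.474). PSME1, which forms that cap with PSME2, was 5.31, 5.05 and 4.57 on the WT arrays and 5.65 on KO, a difference of 0.67 (limma, adjusted p = 0.575). Both subunits of the cap followed the order KO, WT 1, WT 2, WT 3 seen for PSMB8 and PSMB9. At their brightest probes PSMA6, PSMB3, PSMB4 and PSMC1 followed it too. PSME3, of a related nuclear activator, differed by 0.12 and PSMC5, an ATPase of the regulatory particle, by 0.02. PSMA6, a structural subunit of the outer ring, differed by 1.24 at its brightest probe and by at least 1.12 at all 3 of its probes. PSMB3 and PSMB4, structural subunits of the inner ring, differed by 0.94 and 0.60.

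**Figure D2:**
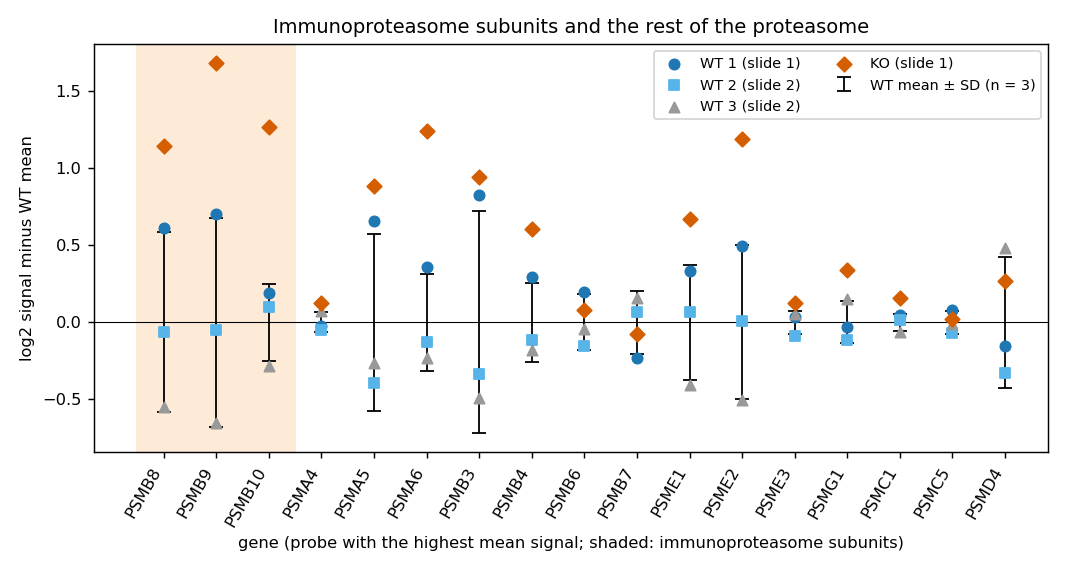
Log2 signal less the WT mean (vertical axis) on each array for PSMB8, PSMB9 and PSMB10 (shaded) and the 14 other proteasome genes tested (horizontal axis), each at the probe with its highest mean, with bars for the SD of the 3 WT arrays. The KO diamonds of PSMB8, PSMB9 and PSMB10 lie between 1.14 and 1.69, and those of PSMB6 and PSMB7 at 0.08 and -0.07.

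TAP1 had the largest differences of the 6 genes. Its brighter probe read 3.05, 1.28 and 1.21 on WT 1, WT 2 and WT 3 and 4.41 on KO. The arrays fell apart by slide, with WT 1 and KO both above WT 2 and WT 3, and KO 1.36 above WT 1. This gave a difference of 2.56, or 5.92-fold, and an SE of 0.90 (limma, adjusted p = 0.440). Its dimmer probe read 1.08, -1.58 and -1.38 on the WT arrays and 2.16 on KO. That difference was 2.79, or 6.91-fold, and its standard error was 1.25 (limma, adjusted p = 0.496), and KO was 1.08 above WT 1. Of all probes tested, 0.831% and 0.678% had a larger difference than the brighter and the dimmer TAP1 probe. The WT SDs of 1.04 and 1.48 were wide, and the gap between WT 1 and the mean of the other WT arrays, 1.80 and 2.57, exceeded the gap between KO and WT 1 on both probes.

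The 2 probes of TAP2 went apart in KO. The dimmer probe read 0.90, -0.05 and -0.23 on the WT arrays and 2.11 on KO, so KO was the highest array, as for TAP1. It was 3.73-fold higher in KO, a difference of 1.90 ± 0.56 (SE, limma, adjusted p = 0.425). The brighter probe read 3.21, 2.24 and 1.16 on the WT arrays and 1.86 on KO, inside the WT range and below WT 1 by 1.35. This difference was -0.34 ± 0.89 (SE, limma, adjusted p = 0.890), and it was 0.17 without WT 1 and -0.86 without WT 3. Among the WT arrays both probes gave the order WT 1, WT 2, WT 3. The log2 ratio of the dimmer to the brighter TAP2 probe was -2.31, -2.28 and -1.39 on the WT arrays and 0.25 on KO, a difference of 2.24 (exact permutation test, two-sided p = 0.25, the smallest it can give). Probes of 1 gene seldom differed this much: of 1244 named genes with at least 2 probes well above background on all 4 arrays, 9 (0.723%) had probe differences at least as far apart, TAP2 included, and the median gap was 0.29. For the other 5 genes here the gap was between 0.14 (PSMB9) and 0.47 (B2M). Both TAP2 probes carry the same RefSeq transcript name, RefSeq lists 2 transcripts of the gene, and where on the transcript each probe binds was not analysed here.

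How TAP2 compared with TAP1 therefore depended on the TAP2 probe. With the brighter TAP2 probe, the log2 ratio of TAP2 to TAP1 at the brighter TAP1 probe was 0.16, 0.96 and -0.06 on the WT arrays and -2.55 on KO, and at the dimmer TAP1 probe it was 2.13, 3.82 and 2.54 on the WT arrays and -0.30 on KO. KO was far below every WT array in both pairs. The ratio was 7.48-fold and 8.74-fold lower in KO than the WT mean (exact permutation test, two-sided p = 0.25 for each, the smallest it can give). With the dimmer TAP2 probe, the ratio at the brighter TAP1 probe was -2.15, -1.32 and -1.44 on the WT arrays and -2.31 on KO. At the dimmer TAP1 probe it was -0.18, 1.54 and 1.15 on the WT arrays and -0.05 on KO. Here KO and WT 1 lay close together, apart from WT 2 and WT 3, and within slide 1 the ratios in KO and WT 1 differed by -0.15 and 0.13. The differences from the WT mean were -0.67 and -0.89 (exact permutation test, two-sided p = 0.25 and 0.75). The dimmer TAP2 probe thus moved with TAP1 within slide 1 to within 0.15 on the log2 scale, and the brighter one departed from it by -2.71 and -2.43.

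**Figure D3:**
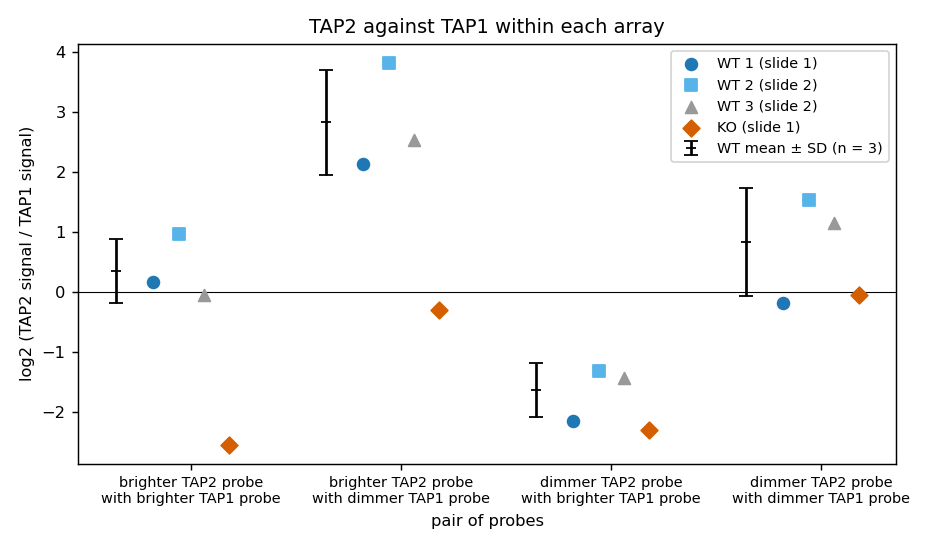
Log2 ratio of TAP2 to TAP1 signal within each array (vertical axis) for the 4 pairs of a TAP2 and a TAP1 probe (horizontal axis), with 1 point per array and a bar for the WT mean and SD of 3 arrays. KO is at -2.55 and -0.30 with the brighter TAP2 probe, below every WT array, and close to WT 1 with the dimmer TAP2 probe. The height of a pair reflects its probes and is not to be read across pairs.

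B2M, the light chain of every class I molecule, was higher in KO on both probes, the brighter with the smallest difference of the 13 probes that were higher. Its brighter probe read 8.71, 8.11 and 7.84 on the WT arrays and 9.02 on KO, and its dimmer probe 8.25, 7.21 and 6.83 on the WT arrays and 8.70 on KO. On both, the arrays stood in the order KO, WT 1, WT 2, WT 3. The differences were 0.80, or 1.75-fold, and 1.27, or 2.42-fold (limma, adjusted p = 0.558 and 0.537). Against WT 1 alone they were 0.32 and 0.45.

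Heavy chain genes of class I were higher in KO, while other partners of loading were mixed. Of 25 listed partner genes 9 could be tested, 8 were higher in KO, 7 were above all WT arrays, 3 were at least 2-fold above the WT mean and 0 were called, with a median difference of 0.86. Over all named genes tested, 54.7% were higher, 38.1% were above all WT arrays and 14% were at least 2-fold above the WT mean. The 3 partner genes at least 2-fold higher were the class I heavy chain genes SLA-5, SLA-6 and SLA-3. Their differences were 1.65, 1.52 and 1.05 (limma, adjusted p = 0.499, 0.499 and 0.515). Over the 15 probes of 5 heavy chain genes, KO was above all WT arrays on 15 and at least 2-fold above the WT mean on 13. The shares were 27% and 7.71% of all probes tested, and 43.1% and 11.4% of the brightest bin. Probes of this gene family can bind RNA of related members. None of the partner genes, at its brightest probe, was 2-fold above every WT array, and the 15 probes gave differences from WT 1 between 0.22 and 1.09. FCGRT, which encodes a class I-like receptor for immunoglobulin G, differed by 0.86. The chaperones of loading differed less, CANX by 0.56 and CALR by 0.33, and CALR was below WT 1 by 0.52. LNPEP, a peptide-trimming enzyme, differed by -0.07. TAPBP, which bridges TAP and the heavy chain, and ERAP1, which trims peptides in the endoplasmic reticulum, were not analysed here.

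Genes that act upstream of these promoters in textbook accounts were also higher in KO. Of 19 listed regulators 12 could be tested, all 12 were higher in KO, 11 were above all WT arrays, 5 were at least 2-fold above the WT mean and 0 were called, with a median difference of 0.89. Among all named genes tested, 54.7% were higher, 38.1% were above all WT arrays and 14% were at least 2-fold above the WT mean. At least 2-fold above every WT array were IFNG, IRF1 and IFNGR2, while 7.33% of the named genes tested were. IFNGR2, a chain of the interferon gamma receptor, was 2.44, 1.48 and 1.87 on the WT arrays and 3.76 on KO, a difference of 1.83 (limma, adjusted p = 0.410). IFNG, the cytokine interferon gamma, was -1.80, -3.35 and -4.63 on the WT arrays and 0.38 on KO, a difference of 3.65 (limma, adjusted p = 0.432). IRF1, an interferon-induced factor that binds class I and immunoproteasome promoters, was 3.78, 3.21 and 2.97 on the WT arrays and 5.28 on KO, a difference of 1.96 (limma, adjusted p = 0.388). IFNG and IRF1 had the order KO, WT 1, WT 2, WT 3 that PSMB8, PSMB9, PSMB10 and B2M had. It was not particular to them. At their brightest probes IFNGR1, IFNAR1, STAT2, IRF9, NFKB1 and RELA had it too, while IFNGR2, IFNAR2, JAK1 and JAK2 did not. The share of all named genes with this order was not computed. Over the 15 probes of IFNG, IFNGR1, IFNGR2, JAK1, JAK2 and IRF1, KO was above all WT arrays on 15. For the type I interferon genes IFNAR1, IFNAR2, STAT2 and IRF9 this held on 8 of 9 probes. The share was 27% of all probes tested and 43.1% of the brightest bin. Among the interferon gamma genes not given above, JAK2 differed by 1.21, IFNGR1 by 0.84 and JAK1 by 0.57. Of the genes of the type I interferon branch, IFNAR1 differed by 0.92, STAT2 by 0.85, IRF9 by 0.69 and IFNAR2 by 0.26. The remaining regulators, NFKB1 and RELA, differed by 1.49 and 0.53. The 5 regulators at least 2-fold above the WT mean were thus IFNG, IRF1, IFNGR2, NFKB1 and JAK2. The median difference over all probes was 1.00 for the interferon gamma genes and 0.92 for the type I branch. The split into these sets was chosen, with JAK1 and IRF1 counted among the interferon gamma genes only. No test between the sets was made. JAK2, a kinase of the interferon gamma receptor, broke the WT order, with -0.90, 0.05 and 0.22 on the WT arrays and 1.00 on KO.

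The class II pathway, which shares the MHC region, gave the nearest comparison. Of 11 listed genes 9 could be tested, 8 were higher in KO, and the same 8 were at least 2-fold above the WT mean, with a median difference over the 9 of 1.37 and 0 called. Of these 8, CD74, SLA-DRB1, SLA-DMA, SLA-DMB and SLA-DOA were at least 2-fold above every WT array. Across all named genes tested, 54.7% were higher, 14% were at least 2-fold above the WT mean and 7.33% at least 2-fold above every WT array. CD74, the invariant chain that guides class II molecules, differed by 1.44, the class II chain gene SLA-DRB1 by 1.27, the peptide exchange genes SLA-DMA and SLA-DMB by 1.30 and 1.42, and their modulator SLA-DOA by 1.89. Over the 30 probes of those 8 genes, differences ran from 1.19 to 2.03 and differences from WT 1 from 0.78 to 1.37. The exception was SLA-DOB, the gene next to TAP2, whose product works in class II loading. It was -0.88, -1.27 and -1.78 on the WT arrays and -1.83 on KO, a difference of -0.52, and it was below WT 1 by 0.95. Its 2 probes gave -0.52 and -0.54. Within slide 1 the brighter TAP2 probe was also below WT 1, while the dimmer TAP2 probe and all probes of PSMB8, TAP1 and PSMB9 in the same cluster were above it. No test between the class I and class II genes was made.

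**Figure D4:**
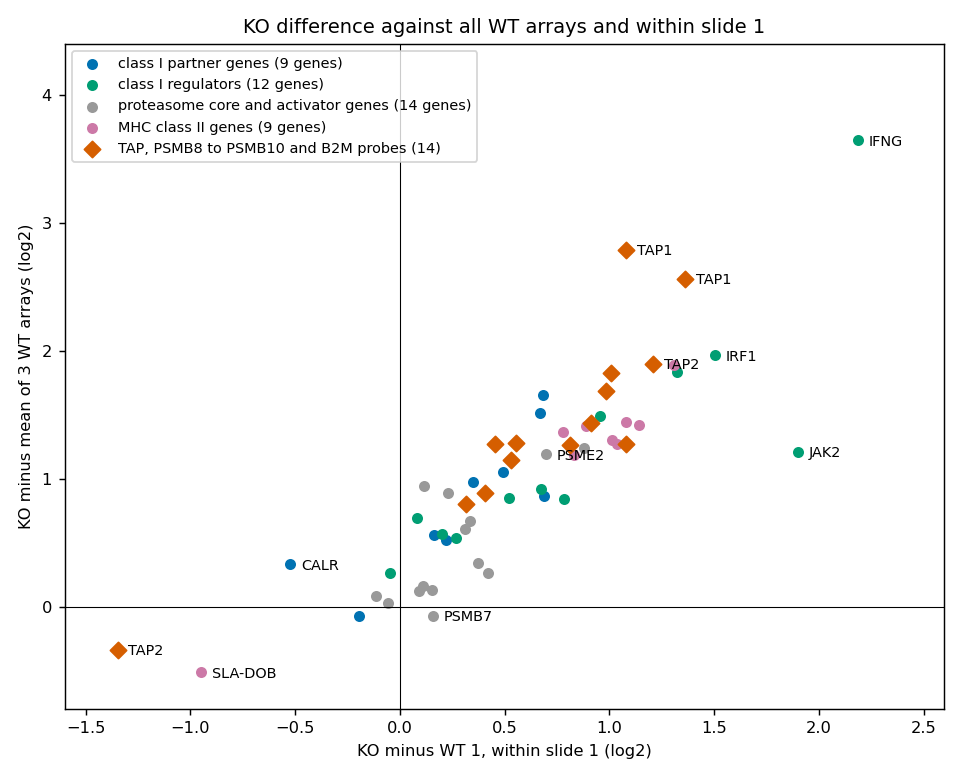
Difference between KO and the mean of the 3 WT arrays (vertical axis, log2) against the difference between KO and WT 1 within slide 1 (horizontal axis, log2), for the 14 probes of the 6 genes and for other genes at the probe with their highest mean. Both axes use the KO array and WT 1, so the points are bound to align. The brighter TAP2 probe, SLA-DOB and LNPEP lie below 0 on both axes, and IFNG lies farthest up.

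Genes with a like profile over the 4 arrays were sought among 2426 other named genes well above background on every array, as a description over 4 values each. The mean centred profile of the 6 genes was 0.40, -0.41 and -0.89 on WT 1, WT 2 and WT 3 and 0.89 on KO. The closest by Euclidean distance were PSAP (0.13), EPHX2 (0.14), CASP8 (0.14), PLPP2 (0.16) and TAGAP (0.20). PSAP encodes a precursor of lysosomal activator proteins and CASP8 a caspase of cell death. Of the 6 genes, TAP1 and TAP2 lay farthest from their own mean, at 1.37 and 1.44, TAP1 through its wider span and TAP2 because its brighter probe was used.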

How the data were processed

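Total RNA of pig spleen was amplified, labelled with Cy3 and hybridised by the authors to 1 Agilent porcine array per sample, per the labels and file headers. The study's methods describe a Cy3 and Cy5 pair instead, and the values were treated as one-colour. The deposited intensity is the processed signal of Agilent Feature Extraction 11.0.1.1, corrected for background within the array. The deposited series table holds log2 values of 27421 probes made by the authors, whose sorted columns differ by at most 0.00154, and it served as an alternative. Spots with outlier flags were left out (28 probes), the 75th percentile of each array was subtracted from the log2 processed signal, and spots of a probe were averaged. The 33464 probes well above background on at least 1 array were fitted with limma 3.58.1 (lmFit, eBayes, two-sided) in R 4.3.3, with Python 3.11.15 for tables. A call needed an adjusted p under 0.05 and a 2-fold difference. Only the WT arrays give the residual spread (2 degrees of freedom), and KO is assumed to vary alike. The number of arrays limits the precision, and nothing beyond the replicate numbers says whether the WT samples are separate animals, so p-values measure only the spread between these samples, which may be technical. The fit was tested on simulated data with independent noise, the same spread for KO as for WT, and no slide effect. That run therefore cannot show how the fit behaves where slides differ or KO varies otherwise.

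Groups came from the sample titles. Probes were named by unversioned RefSeq transcripts of Sscrofa11.1, which named 6686 of 43603 probes (15.3%). A gene with several probes stood in lists by the probe with its highest mean. Genes named in the text were the 6 genes at their probes, list genes at least 2-fold outside the WT range, a set of partners (IRF1, TAPBP, PSME1, PSME2, PSMB5, PSMB6, PSMB7) and the 5 nearest profiles. Others, such as PSMA6, CALR, JAK2, KLF1 and SLA-DOB, were named after their values were seen. The members and lists were chosen with earlier results of these data known. The 4 brightness bins used the mean of KO and the WT mean. Promoter and probe sequences were not analysed here, and some genes of the lists are not reported here and were left out of every list count. Alternatives covered scaling, filters, the slide as a block, left-out arrays, the probe rule and the methods' t-test, unadjusted, after Benjamini-Hochberg and, added after seeing the data, after the Bonferroni step that the study names.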

Additional observations from a re-analysis of the deposited data

How the results depend on the processing

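Of the limma settings, those that gave any probe past the adjusted threshold were normexp with 4 and eBayes with a trend with 6. The methods' t-test gave 1333 probes at least 2-fold different at an unadjusted p under 0.05, and 0 after Benjamini-Hochberg or Bonferroni. No probe of the 6 genes had an adjusted limma p under 0.05 in any of the limma settings run for it, the lowest being 0.0737. The settings run for these probes did not include eBayes with a trend. Direction held in 153 of 154 values of the 14 probes. The exception was the brighter TAP2 probe, whose values ran from -0.86 (without WT 3) to 0.17 (without WT 1) as each WT array was left out. The settings that changed only the filter on dim probes left every difference of the 14 probes as it was. Their direction could not change, so they add nothing to that count. The 3775 probes at an unadjusted limma p under 0.05 became 10757 without WT 1, 1512 without WT 2 and 1823 without WT 3. The probes at least 2-fold above WT fell from 11 to 5 with the slide as a block, where the comparator is WT 1 alone.

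With that block the TAP2 to TAP1 difference was -0.15 for the dimmer TAP2 and brighter TAP1 probe and 0.13 for both dimmer probes. The mean over all probes of each gene gave -1.90. For partner genes the block gave a median of 0.35 and 0 genes at least 2-fold higher, and both the median shift and the mean of probes gave 5 genes. For class II genes it gave 1.02 and 5 genes. The regulators at least 2-fold higher went from 5 to 8 under the median shift.

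The median of the other proteasome genes was 0.11 under quantile normalization, 0.55 under the median shift, 0.19 with the percentile over probes above background on all arrays, 0.17 under normexp, 0.11 in the deposited table, 0.19 with the block and 0.35 with the mean of probes. Leaving out each WT array gave 0.22 to 0.44, and 1 to 4 genes at least 2-fold higher. That count was 1 under quantile normalization, normexp and the deposited table, 4 under the median shift and 0 with the block. The causes were not tested. These scalings moved the median of all probes from -0.11 to -0.02 (quantile), 0.14 (median shift) and -0.22 (that percentile). Normexp on the mean signal was not run here, and the median signal, chosen after seeing the data, took its place. No paired analysis was possible because the KO title carries no replicate number.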
